A study of Homo sapiens with 8 samples.

Results

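The genes described here are the numbered zinc finger genes, those whose symbol is ZNF followed by a number alone, that were expressed in the cells studied. A gene was included when its read counts summed over the 4 mRNA libraries reached 150, which 210 of the 476 numbered ZNF genes did, out of 20453 gene IDs listed in all. Of the other numbered ZNF genes, 58 had no mRNA read in any library and 208 had between 1 and 149. The members were thus chosen by their mRNA read counts, and their presence and level in mRNA are a description with no test. The rule pools both genotypes, so a gene near the threshold can enter through the genotype in which it has more reads: 14 members would not reach 150 reads with all 4 libraries at their wild-type level, and 0 with all 4 at their mutant level. Just inside the threshold lay ZNF823 with 152 reads, ZNF41 with 154 and ZNF717 with 159, and just outside it ZNF566 with 149, ZNF260 with 148 and ZNF708 with 147.

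Most numbered ZNF genes code for proteins with tandem C2H2 zinc fingers, in which each finger folds around a zinc ion and the array reads a DNA sequence. Many carry a KRAB domain, which recruits TRIM28 (KAP1) and, through it, the H3K9 methyltransferase SETDB1, HP1 proteins and the NuRD deacetylase complex, so that heterochromatin and DNA methylation form at the bound site. A main target of these proteins is DNA derived from transposable elements. The genes multiplied by tandem duplication, and large families stand side by side in clusters on chromosome 19. Several members do other work, in spindle assembly, ribosome quality control or ribosome assembly, and lack the KRAB domain.

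The study compared cells transduced with a DNMT3A mutant and cells transduced with wild-type DNMT3A, in libraries of mRNA and of ribosome footprints, the stretches of mRNA covered by a ribosome and so spared by nuclease. DNMT3A sets new methyl groups on DNA and is often mutated in acute myeloid leukaemia. The cells of both groups were labelled THP-1, an established line from acute monocytic leukaemia, and both groups carry an introduced DNMT3A, so no library comes from cells without a transgene. The 8 libraries form 4 groups of 2: mutant mRNA, wild-type mRNA, mutant footprints and wild-type footprints. The labels give neither the promoter of the transgene nor whether the replicates were separate cultures, so the spread behind the p-values is that of these libraries alone and may be technical.

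Total counts were 4393445 and 3901659 in mutant mRNA, against 3415999 and 4523475 in wild-type mRNA, and 944824 and 603360 in mutant footprints, against 1611724 and 1988513 in wild-type footprints. The paired mutant footprint libraries differed by no more than counting noise over all genes with 20 or more reads (chi-square per degree of freedom 0.925), and so did the wild-type ones (1.01). Among genes with 1000 or more reads both footprint pairs differed by more than counting noise (1.36 in mutant and 1.6 in wild type), as did both mRNA pairs (2.11 in mutant and 1.19 in wild type), and each library was kept as a replicate. DNMT3A mRNA stood at 241 and 244 CPM (counts relative to library size, scaled by TMM factors) in mutant libraries and at 291 and 294 CPM in wild-type libraries, a log2 fold change of -0.27 (SE 0.053, edgeR quasi-likelihood test, Benjamini-Hochberg adjusted p = 4.27e-06). Reads of the transgene and of the endogenous gene are counted together. Against the label, 6 of 12 monocyte markers (S100A8, S100A9, FCN1, CSF1R, MPO and IRF8) had no mRNA read in any library, and 3 of the 12 (LYZ, CD68 and SPI1) reached 10 CPM in all 4 mRNA libraries. All 12 erythroid and megakaryocyte markers reached 10 CPM, with a summed level of 2145 to 2206 CPM in mutant and 2605 to 2639 CPM in wild-type mRNA. Of 4 epithelial markers 3 reached it, with sums of 667 to 674 CPM in mutant and 821 to 843 CPM in wild-type mRNA, and of 4 lymphoid markers none. These sums move with the genotype, and their part in the values below was not tested. In bulk samples fewer cells of a type and less RNA per cell cannot be told apart.

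Expressed members were spread unevenly over the genome. Chromosome 19 held 81 of them, chromosome 7 held 23, chromosome 16 held 20, chromosome 1 held 14 and chromosome 3 held 10. On chromosome 19 a cluster was defined as a run of at least 5 numbered ZNF genes, expressed or not, whose neighbouring starts lie at most 500 kb apart, which gave 10 clusters, numbered here from 1 to 10 along the chromosome. They held 229 numbered ZNF genes, of which 75 (32.8%) were members. Of the 247 numbered ZNF genes at other sites 135 (54.7%) were members. The share varied from cluster to cluster. Cluster 8 (GRCh38 chr19:51571283-53580269) had 18 members of 39 genes, cluster 4 (chr19:19668153-24129968) 13 of 37, cluster 10 (chr19:57191500-58489533) 13 of 41, and cluster 9 (chr19:55476617-56671757) 8 of 16. Clusters 6 and 7 were the emptiest, with 3 members of 25 genes and 1 of 23. Cluster members had a median of 271 mRNA reads over the 4 libraries and members at other sites 509.

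Together the members took 0.810% and 0.803% of all mRNA counts in mutant libraries, against 0.757% and 0.759% in wild-type libraries. Cluster members took 0.188% and 0.187% in mutant and 0.163% and 0.164% in wild-type mRNA. The mutant libraries are above the wild-type libraries in both measures and the groups do not overlap. These shares sum genes chosen by the same reads, so they are a description. Of the members 14, of which 9 lie in the clusters, entered only through their mutant reads, and 0 only through their wild-type reads. Taken singly, 34.0% of all genes tested had both mutant libraries above both wild-type libraries. The members with the most mRNA reads lie outside the clusters. ZNF207, a spindle assembly protein that binds BUB3, had 224 and 213 CPM in mutant and 191 and 207 CPM in wild-type mRNA, with a log2 fold change of 0.13 that did not pass the test (edgeR, Benjamini-Hochberg adjusted p = 0.0603). ZNF217, a component of CtBP corepressor complexes, had 179 and 168 CPM in mutant and 170 and 178 CPM in wild-type mRNA, so that the groups overlap. ZNF318 had 156 and 150.2 CPM in mutant and 158 and 145 CPM in wild-type mRNA, which also overlap. The mRNA of ZNF598, the ubiquitin ligase that marks collided ribosomes, was lower in the mutant, with 148 and 170 CPM in mutant against 218 and 207 CPM in wild-type libraries (edgeR log2 fold change -0.42, SE 0.061, adjusted p = 1.98e-10). ZNF74, a KRAB gene of the 22q11 region, was lower too, with 145 and 148 CPM in mutant and 167 and 178 CPM in wild-type libraries (edgeR log2 fold change -0.24, adjusted p = 0.000958). Read counts depend on transcript length, so levels are compared here between libraries for 1 gene and not between genes.

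In mRNA, 67 of the 210 members were higher and 35 were lower in the mutant (edgeR quasi-likelihood test over 10756 genes, Benjamini-Hochberg adjusted p under 0.05). Over all genes tested, 18.9% were called higher and 18.9% lower. The members' shares were 31.9% higher and 16.7% lower, and their median log2 fold change was 0.17, against -0.00 for all genes. With the trend of change on gene density removed, as described below, the calls were 74 higher and 19 lower. That fit called 1692 higher and 1246 lower among all 10756 genes. Of the 67 called higher, 11 reached the threshold only through their mutant reads, 8 of them in the chromosome 19 clusters; these had to be higher in the mutant, and they are ZNF320, ZNF253, ZNF616, ZNF841, ZNF587, ZNF845, ZNF84, ZNF816, ZNF239, ZNF41 and ZNF823. Both mutant libraries lay above both wild-type libraries for 106 members and below them for 57, where all genes gave 34.0% above and 33.9% below. The counts of calls depend on single libraries: without mutant mRNA replicate 1 they were 40 higher and 17 lower, and without wild-type mRNA replicate 2 they were 37 and 20. DESeq2, which gave no adjusted p for 120 of the 210 members, called 12 higher and 10 lower.

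In the chromosome 19 clusters 30 of 75 members were called higher and 9 lower, with a median log2 fold change of 0.36, and both mutant libraries were above both wild-type libraries for 50 of the 75 and below for 11. At other sites 37 of 135 members were called higher and 26 lower, with a median of 0.04. The difference between the medians, 0.31, stayed between 0.28 and 0.34 when any 1 mRNA library was left out. Of the 75 cluster members 9 entered only through their mutant reads, and 8 of them are among the 30 rises. At other sites 5 of the 135 did, and 3 of them are among the 37 rises. Leaving out a library keeps these members, so the range does not show the effect of the rule, and the difference is a description. The summed mRNA level of the cluster members was 1854 and 1857 CPM in mutant and 1648 and 1662 CPM in wild-type libraries, a ratio of 1.12. For members at other sites it was 6151 and 6127 CPM in mutant and 5994 and 6040 CPM in wild-type libraries, a ratio of 1.02. Without mutant mRNA replicate 1 the cluster members called were 17 higher and 4 lower, and without wild-type mRNA replicate 2 they were 17 and 6.

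**Figure D1:**
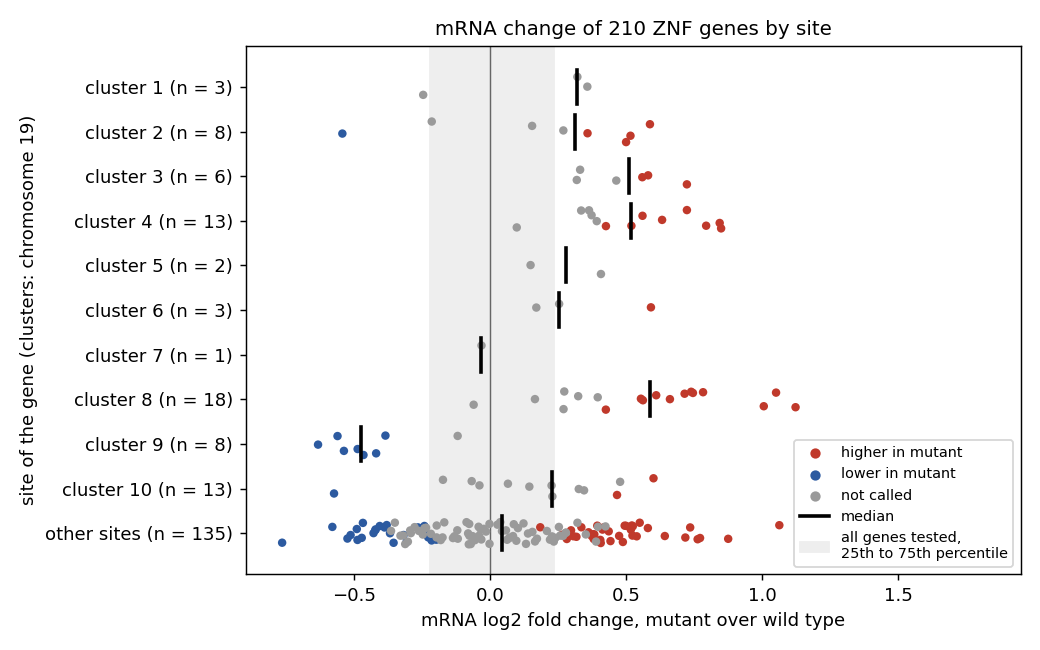
Each point is 1 of the 210 members, placed by its mRNA log2 fold change, mutant over wild type, with 1 row for each chromosome 19 cluster and 1 for all other sites; red points were called higher and blue points lower in the mutant (edgeR), black bars are medians and the grey band spans the 25th to 75th percentile of all genes tested. Clusters 3, 4 and 8 hold no called fall, with medians of 0.51, 0.52 and 0.59, and cluster 9 holds no called rise, with a median of -0.48.

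The clusters did not move alike. For comparison, 18.9% of all genes tested were called higher and 18.9% lower. In cluster 8 the mRNA of 12 of 18 members rose and none fell, with a median log2 fold change of 0.59, and both mutant libraries were above both wild-type libraries for 16 of the 18. Of these risers ZNF320, ZNF616, ZNF841, ZNF845 and ZNF816 reached the threshold only through their mutant reads, so their direction was fixed by the rule. The same holds for ZNF253 in cluster 4, ZNF823 in cluster 3 and ZNF587 in cluster 10. The cluster's summed mRNA level was 397 and 380.5 CPM in mutant, against 274 and 272 CPM in wild-type libraries. In cluster 4, 8 of 13 rose and none fell, with a median of 0.52 and sums of 272 and 271 CPM in mutant against 201 and 181 CPM in wild-type libraries. In cluster 3 (chr19:11483429-12633834) 3 of 6 rose and none fell (median 0.51). Cluster 2 (chr19:8509678-9786160) had 4 rises and 1 fall among 8 members, and cluster 10 had 2 rises and 1 fall among 13. Cluster 9 went the other way: 7 of its 8 members fell, none rose, and the median was -0.48. Its summed mRNA level was 294 and 336 CPM in mutant, against 404 and 453 CPM in wild-type libraries. The 0 rises in cluster 9 and the 0 falls in clusters 3, 4 and 8 are edgeR counts at the adjusted threshold; all 8 log2 fold changes of cluster 9 were below 0, and 17 of 18 in cluster 8, 13 of 13 in cluster 4 and 6 of 6 in cluster 3 were above 0.

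ZNF320, a KRAB gene of cluster 8 (GRCh38 chr19:52859491-52904320), had the largest log2 fold change of all members, and is one of those that entered only through their mutant reads (149 in mutant and 64 in wild type). Its mRNA level was 18.7 and 16.8 CPM in mutant libraries, against 7.98 and 8.30 CPM in wild-type libraries (edgeR log2 fold change 1.12, SE 0.22, adjusted p = 2.72e-06). ZNF816 of the same cluster had 14.8 and 12 CPM in mutant and 5.03 and 7.62 CPM in wild-type libraries (edgeR log2 fold change 1.05, adjusted p = 0.000133). ZNF845 had 14.4 and 13.3 CPM in mutant and 8.57 and 5.60 CPM in wild-type libraries (edgeR log2 fold change 1.01, adjusted p = 0.000195). ZNF816 (113 reads in mutant and 51 in wild type) and ZNF845 (116 in mutant and 54 in wild type) also entered only through their mutant reads. Groups that do not overlap were a condition for naming ZNF320, ZNF816 and ZNF845. These genes were selected in part through the values tested, so their p-values are descriptions. ZNF816 overlaps a readthrough gene, ZNF28 and ZNF600 overlap each other, and the duplicated genes of this cluster resemble one another, so reads could be split between neighbours in a way the counts do not show. Without wild-type mRNA replicate 2 the call for ZNF845 was lost. The other called members of cluster 8 rose by 0.42 (ZNF175, which is known to act on the HIV-1 promoter) to 0.78 (ZNF761) on the log2 scale: ZNF808, ZNF28, ZNF888, ZNF600, ZNF614, ZNF616 and ZNF841 lay between them. ZNF766, with 15.7 and 17.1 CPM in mutant and 16.9 and 17.3 CPM in wild-type libraries, was the cluster's only member with a log2 fold change below 0 (-0.06).

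In cluster 4, on the short arm of chromosome 19 near the centromere, ZNF714 had the smallest p of the members that rose. Its mRNA level was 35.8 and 40.5 CPM in mutant libraries, against 21.9 and 20.6 CPM in wild-type libraries (edgeR log2 fold change 0.84, SE 0.14, adjusted p = 5.9e-08). ZNF675, also known as TIZ and described as a partner of the signalling adaptor TRAF6, had 24.1 and 23.7 CPM in mutant and 14.8 and 13.0 CPM in wild-type libraries (edgeR log2 fold change 0.79, adjusted p = 6.18e-05). ZNF253 had 17.5 and 13.0 CPM in mutant and 8.87 and 8.30 CPM in wild-type libraries (edgeR log2 fold change 0.85, adjusted p = 0.000732); its call was lost without mutant mRNA replicate 1, and it too entered only through its mutant reads. Groups that do not overlap were a condition for naming these 3. For ZNF253 the p-value is a description, since its mutant reads selected it. ZNF91, a KRAB repressor of SVA and L1 retrotransposons, had 17.8 and 14.8 CPM in mutant and 12.1 and 10.3 CPM in wild-type libraries, and its rise of 0.56 on the log2 scale passed the test (edgeR adjusted p = 0.0197). ZNF91 was named after its value was seen, for what it is known to do. ZNF100 had 28.3 and 27.5 CPM in mutant and 26.0 and 26.2 CPM in wild-type libraries, the smallest difference of the cluster (log2 fold change 0.10, not called).

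Cluster 9 lies next to cluster 8 on the chromosome, and 7 of its 8 members fell. With the trend on gene density removed 3 of the falls were called. ZNF579 had 25.4 and 31.6 CPM in mutant libraries, against 41.7 and 45.7 CPM in wild-type libraries (edgeR log2 fold change -0.63 with an SE of 0.13, adjusted p = 7.46e-06). ZNF580 had 34.4 and 41.1 CPM in mutant and 52.0 and 58.1 CPM in wild-type libraries (edgeR log2 fold change -0.56, adjusted p = 6.84e-06). ZNF865 had 74.9 and 85.2 CPM in mutant and 106 and 123 CPM in wild-type libraries (edgeR log2 fold change -0.54, SE 0.079, adjusted p = 4.75e-10). In all 3 the mutant libraries lie below the wild-type libraries, which was a condition for naming them. With the density trend removed their log2 fold changes were -0.38 (ZNF579), -0.30 (ZNF580) and -0.28 (ZNF865), each still called. ZNF787, ZNF628, ZNF444 and ZNF524 fell by 0.39 to 0.49 on the log2 scale. ZNF581, which overlaps ZNF580 so that reads of the pair cannot be told apart with certainty, had 39.8 and 42.1 CPM in mutant and 35.8 and 51.1 CPM in wild-type libraries and was the 1 member of the cluster not called.

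The sequences just before a transcription start of 4 of these genes are shown because DNMT3A methylates cytosine in CG, and because neighbouring clusters moved in opposite directions. Each line gives the 250 bases before the first start listed for the gene (RefSeq, GRCh38.p14), 5′ to 3′ on the gene's strand, with every CG in capitals. ZNF320 (chr19:52897695-52897944, minus strand, the first of 2 starts in the table, inside the gene's span given above and not at its 5′ end) holds 16 CG, ZNF714 (chr19:21081953-21082202, plus strand) 8, ZNF579 (chr19:55580849-55581098, minus strand) 10 and ZNF580 (chr19:55640752-55641001, plus strand, the first of 3 starts) 30.
ZNF320: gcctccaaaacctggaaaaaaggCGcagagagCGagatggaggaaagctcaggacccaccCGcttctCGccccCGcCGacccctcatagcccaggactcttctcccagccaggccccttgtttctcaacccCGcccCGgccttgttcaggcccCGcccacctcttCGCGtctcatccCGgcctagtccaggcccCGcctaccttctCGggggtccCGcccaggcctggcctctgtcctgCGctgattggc
ZNF714: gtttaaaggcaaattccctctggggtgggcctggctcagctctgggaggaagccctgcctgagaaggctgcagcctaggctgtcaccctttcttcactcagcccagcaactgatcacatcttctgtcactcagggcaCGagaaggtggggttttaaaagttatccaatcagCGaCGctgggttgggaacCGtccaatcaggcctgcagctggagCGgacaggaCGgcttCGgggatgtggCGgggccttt
ZNF579: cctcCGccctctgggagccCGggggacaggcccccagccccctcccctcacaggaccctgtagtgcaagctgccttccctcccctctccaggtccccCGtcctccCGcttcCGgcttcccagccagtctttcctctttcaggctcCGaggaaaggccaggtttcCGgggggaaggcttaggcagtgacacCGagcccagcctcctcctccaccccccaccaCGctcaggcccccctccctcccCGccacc
ZNF580: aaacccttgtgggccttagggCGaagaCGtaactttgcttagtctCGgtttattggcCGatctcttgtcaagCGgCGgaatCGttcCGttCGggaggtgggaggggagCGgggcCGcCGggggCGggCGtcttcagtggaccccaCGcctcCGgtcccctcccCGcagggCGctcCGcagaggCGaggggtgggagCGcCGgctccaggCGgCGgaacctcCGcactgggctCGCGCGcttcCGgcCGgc
The first 2 belong to genes that rose and the last 2 to genes that fell, and a gene with few CG and a gene with more stand in each pair.

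Promoters of 184 of the 210 members were found in the RefSeq table, as 300 bases reaching 50 bases past the start. The motif CG, which reads the same on both strands, occurred 23 times per promoter in the median member and 14 times in the median gene of the table. Counts were averaged over the starts of a gene. The average was at least 10 in 95.1% of the 184 members, against 57.4% of the 27305 genes of the table. Those genes were not filtered for expression, while the members were. The share among expressed genes was not computed, so these values cannot be read as particular to ZNF genes. The median was 21 in members called higher, 29 in members called lower and 23 in members not called. Cluster members had a median of 20.2 and members at other sites of 25.8. Clusters 8 and 9, which moved in opposite directions, had medians of 25.2 and 23, and cluster 4, which rose, had 10. These are counts of letters. DNA methylation is not analysed here, and the part of CG content in the changes was not tested.

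Members outside the chromosome 19 clusters moved in both directions. Over all genes tested 18.9% were called higher and 18.9% lower. On chromosome 16, 9 of 20 members fell, 1 rose, and the median log2 fold change was -0.30. The summed levels were 681 and 724 CPM in mutant against 851 and 848 CPM in wild-type mRNA. These members had a median of 42 protein-coding genes starting within 500 kb. Among genes other than numbered ZNF genes with 20 or more, 4.46% were called higher and 36.2% lower. ZNF205 of that chromosome had 25.0 and 22.9 CPM in mutant and 33.7 and 37.7 CPM in wild-type libraries (edgeR log2 fold change -0.58, adjusted p = 0.000216). Its call was lost with the density trend removed (log2 fold change -0.33, edgeR adjusted p = 0.0603). An assumed coefficient of variation of 10% between replicates also removed the mRNA calls of ZNF205, ZNF324, ZNF41, ZNF414 and ZNF580. ZNF267 was the riser there (0.64). On chromosome 7, 9 of 23 rose and 5 fell (median 0.23), on chromosome 1, 5 of 14 rose and 4 fell (0.04), and on chromosome 3, 3 of 10 rose and none fell (0.25).

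ZNF84, a KRAB gene on chromosome 12, had the largest log2 fold change outside chromosome 19, with 14.2 and 13.0 CPM in mutant against 7.69 and 5.60 CPM in wild-type mRNA (edgeR log2 fold change 1.06, adjusted p = 0.000106). ZNF41, a KRAB gene of the X chromosome, had 15.3 and 8.67 CPM in mutant and 6.80 and 6.50 CPM in wild-type mRNA (edgeR log2 fold change 0.87, adjusted p = 0.00216). Its mutant libraries differ widely from each other, and without mutant mRNA replicate 1 the call was lost and the log2 fold change was 0.39. Both ZNF84 and ZNF41 entered only through their mutant reads, so their p-values too are descriptions. The largest fall of all members was that of ZNF467 on chromosome 7, with 19.8 and 29.3 CPM in mutant against 38.1 and 43.7 CPM in wild-type mRNA (edgeR log2 fold change -0.77, SE 0.13, adjusted p = 2.14e-07). Without mutant mRNA replicate 1 its log2 fold change was -0.49. ZNF316 on the same chromosome had 70.2 and 68.3 CPM in mutant and 103 and 97.1 CPM in wild-type mRNA (edgeR log2 fold change -0.53, adjusted p = 1.56e-08). ZNF324 of cluster 10 and ZNF414 of cluster 2 were the falls in clusters that otherwise rose or moved little, by 0.57 and 0.54 on the log2 scale. Both calls were lost without mutant mRNA replicate 1 and with the density trend removed, that of ZNF324 also without wild-type mRNA replicate 1 (log2 fold change -0.35), and that of ZNF414 also without wild-type mRNA replicate 2.

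**Figure D2:**
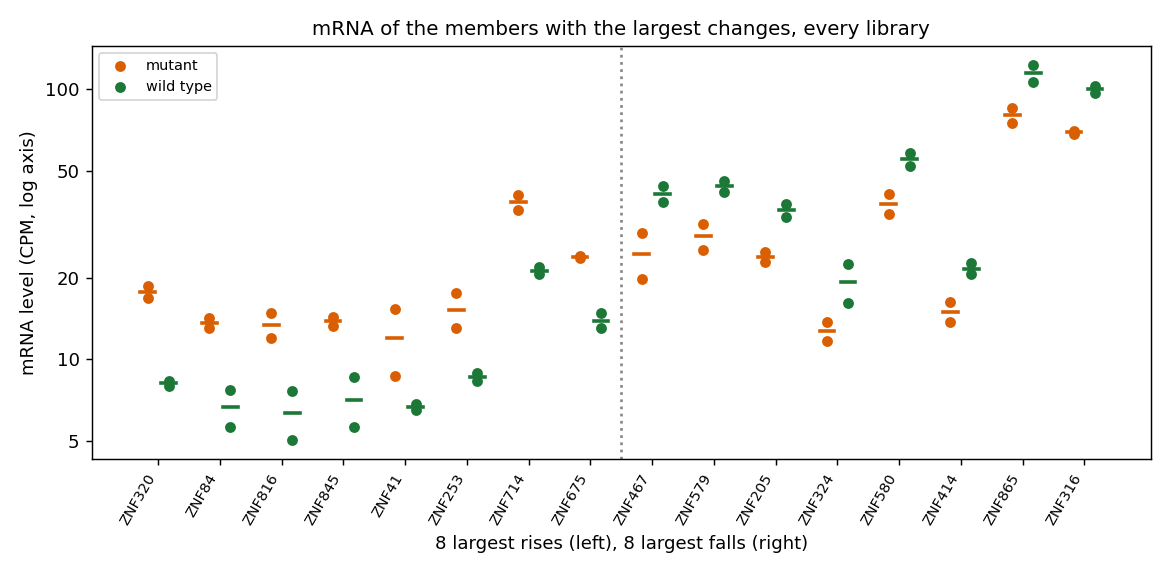
Points give the mRNA level in CPM (log axis) of each library and bars the mean of 2, mutant left of wild type, for the 8 largest called rises and the 8 largest called falls among members with a mean count of at least 30 and groups that do not overlap. ZNF320 reaches 18.7 and 16.8 CPM in mutant against 7.98 and 8.30 CPM in wild-type libraries, and the mutant libraries of ZNF41 lie farther apart than those of the other risers.

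The mRNA change of all genes moved with local gene density, counted as protein-coding genes that start within 500 kb. Among genes other than numbered ZNF genes, the median log2 fold change was 0.16 in the tier of lowest density (9 or fewer neighbours), 0.01 in the middle tier and -0.18 in the tier of highest density (20 or more). Members at other sites had medians of 0.26, 0.10 and -0.12 in the same tiers. Cluster members had 0.43, 0.62 and 0.32. In the tier of highest density, which holds 62 of the 75 cluster members, 22 cluster members were called higher and 9 lower. The other genes there had 150 higher and 1217 lower among 3361. Among the 22, ZNF320, ZNF616, ZNF841, ZNF845, ZNF816, ZNF823 and ZNF587 entered only through their mutant reads. Their direction was fixed by the rule, which was not applied to the other genes, so these counts are a description. Chromosome 19 genes other than numbered ZNF genes had 15 higher and 345 lower of 685, with a median of -0.26. When the trend with density was removed from the fit, 1692 of all 10756 genes were called higher and 1246 lower (median 0.03). Of the 75 cluster members 41 were then called higher and 3 lower (median 0.49). Cluster 8 had 16 rises of 18, cluster 4 had 5 rises of 13 (median 0.45) and cluster 9 had 3 falls of 8 (median -0.25). Of 135 members at other sites 33 rose and 16 fell (median 0.11). In this fit too, 9 of the 75 cluster members and 5 of the 135 had entered only through their mutant reads.

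**Figure D3:**
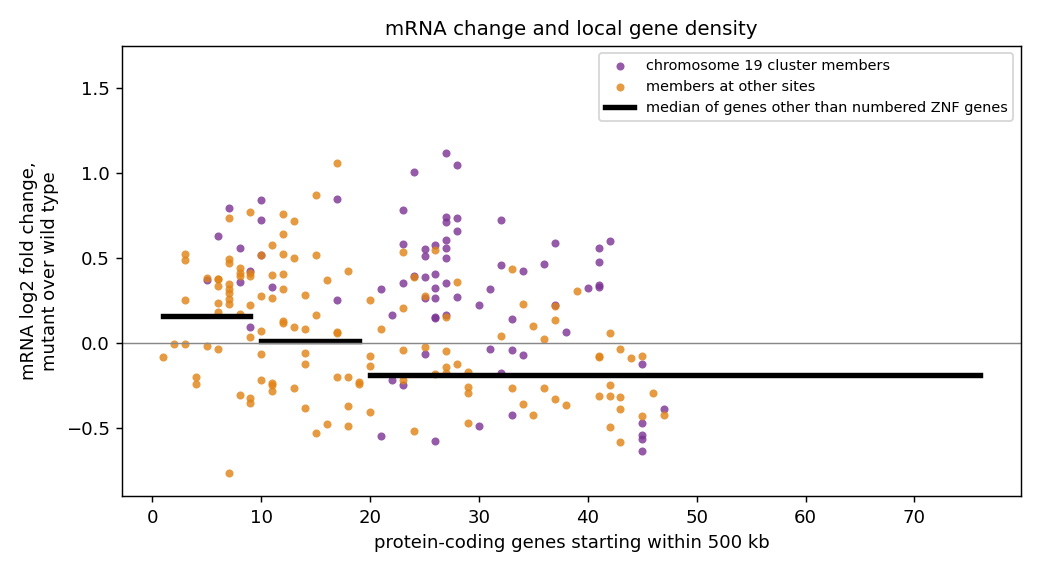
Each point is a member, placed by the number of protein-coding genes that start within 500 kb and by its mRNA log2 fold change, mutant over wild type; black bars give the median of genes other than numbered ZNF genes in 3 density tiers. The bars step from 0.16 through 0.01 to -0.18, while the chromosome 19 cluster members (purple) in the tier of highest density have a median of 0.32. Over all tiers, 9 cluster members entered only through their mutant reads.

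Calls also varied with the number of reads. Of the 105 members with smaller mRNA sums 33 were called higher and 5 lower (median log2 fold change 0.32). Of the 105 with larger sums 34 were higher and 30 lower (median -0.02). Over all genes tested 18.9% were called in each direction. The 14 members that entered only through their mutant reads all have smaller sums. Of these 14, 11 are among the 33 rises, and their direction was fixed by the rule. Numbered ZNF genes below the threshold of 150 reads, of which 116 were tested, had 22 rises and 1 fall (median 0.26). Cluster members have fewer reads than members at other sites, and the part of read count in the difference by site was not tested.

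Footprints were too few for the full set. The filter on low counts kept 168 of the 210 members, and of the 42 left out 28 lie in the clusters, so that 47 of 75 cluster members were tested. Footprints rose for 14 of the 168 and fell for 10 (edgeR quasi-likelihood test, Benjamini-Hochberg adjusted p under 0.05), with a median log2 fold change of 0.05. Over the 9181 genes tested 10.3% were called higher and 10.9% lower, and the members' shares were 8.33% higher and 5.95% lower. The members' log2 fold changes had a median SE of 0.285, against 0.191 over all genes. At an unadjusted p under 0.05 (edgeR) stood 55 of the 168 members and 3011 of all 9181 genes. In the clusters 6 rose and 3 fell of 47 (median 0.16), and at other sites 8 rose and 7 fell of 121 (median 0.04). All of these calls were lost without mutant footprint replicate 1, the deeper mutant library: then 0 members were called higher and 0 lower by edgeR, with 13 higher and 12 lower at an unadjusted p under 0.05. Without mutant footprint replicate 2 the counts were 5 and 4, and without wild-type footprint replicate 2 they were 5 and 9. DESeq2 called 0 higher and 1 lower, with 5 and 4 at an unadjusted p under 0.05, and gave no adjusted p for 156 of the 168.

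The footprints of ZNF121, a gene of cluster 2 whose product has been reported to bind MYC, showed the largest rise that met the rule for naming. They were 55.5 and 46.0 CPM in mutant, against 26.0 and 26.9 CPM in wild-type libraries (edgeR log2 fold change 0.96, SE 0.21, adjusted p = 0.000233). ZNF121 mRNA rose as well, with 69.5 and 62.2 CPM in mutant and 51.4 and 42.1 CPM in wild-type libraries (edgeR log2 fold change 0.52, adjusted p = 6.4e-06). ZNF580 had the largest fall by the same rule, with 31.4 and 36.1 CPM of footprints in mutant against 60.3 and 80.7 CPM in wild-type libraries (edgeR log2 fold change -1.10, SE 0.20, adjusted p = 6.47e-06). These 2 and ZNF593, described below, were the named members whose footprint call held when a coefficient of variation of 10% between replicates was assumed.

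ZNF595 had 80.6 and 91.9 CPM of footprints in mutant and 59.0 and 57.9 CPM in wild-type libraries (edgeR log2 fold change 0.54, adjusted p = 0.00662), beside a log2 fold change of 0.50 in mRNA. ZNF292, a large protein in which mutations cause intellectual disability, had 65.9 and 65.7 CPM in mutant and 45.0 and 44.5 CPM in wild-type libraries (edgeR log2 fold change 0.56, adjusted p = 0.0144), with 0.41 in mRNA. ZNF175, ZNF22, ZNF184 and ZNF770 rose by 0.59 to 0.67. Without mutant footprint replicate 1 the log2 fold change of ZNF22 was 0.39 and that of ZNF770 was 1.03, and without mutant footprint replicate 2 that of ZNF770 was 0.38. ZNF598 fell in footprints too, with 83.7 and 90.3 CPM in mutant and 123 and 124 CPM in wild-type libraries (edgeR log2 fold change -0.52, adjusted p = 0.00229). With the density trend removed that call was lost, at -0.32. ZNF777 and ZNF697 fell by 0.59 and 0.81. Groups that do not overlap were a condition for naming these genes.

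Most members called in mRNA had a footprint change of the same sign, and few had a footprint call. The same counts were not made over all genes called in mRNA. Whether the members differ from those genes therefore cannot be said. Of the 67 members with higher mRNA 46 were tested in footprints; 40 of these had a footprint log2 fold change above 0, 9 were called higher, and 1, ZNF706, was called lower. All 35 members with lower mRNA were tested; 26 had a footprint log2 fold change below 0, 4 were called lower, and 1, ZNF865, was called higher. Of the 30 cluster members that rose in mRNA 12 could be tested, 9 had the same sign and 4 were called. The risers ZNF320, ZNF84, ZNF816, ZNF41, ZNF714 and ZNF675 were not tested. ZNF320 had 2.09 and 6.57 CPM of footprints in mutant and 5.08 and 5.17 CPM in wild-type libraries, and ZNF714 had 5.23 and 6.57 CPM in mutant and 4.44 and 7.76 CPM in wild-type libraries, which overlap in both genes. The summed footprints of cluster 8 were 230 and 208 CPM in mutant and 194 and 195 CPM in wild-type libraries, a ratio of 1.13 beside 1.42 in mRNA, and those of cluster 4 had a ratio of 1.18 beside 1.42. The sums of cluster 8 include ZNF320, ZNF616, ZNF841, ZNF845 and ZNF816, and those of cluster 4 include ZNF253. These members entered only through their mutant mRNA reads. The rule used mRNA reads and no footprint reads. Its part in the differences between these ratios was not tested, nor were the differences.

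**Figure D4:**
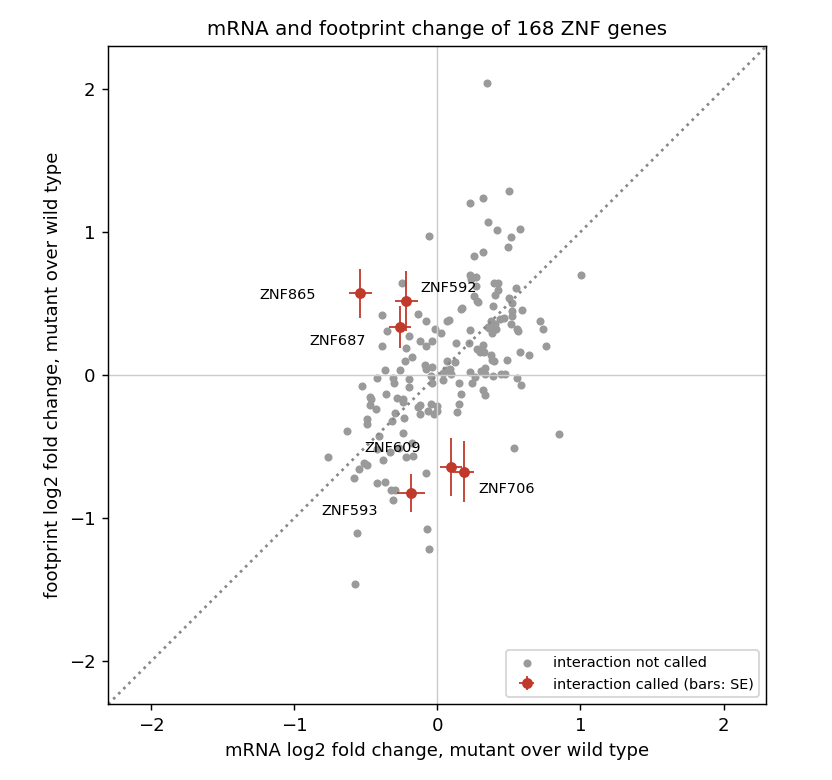
Each point is 1 of the 168 members tested in footprints, placed by its mRNA (horizontal) and footprint (vertical) log2 fold change, mutant over wild type; the dotted line marks equal change, and red points with bars (SE) are the 6 members called in footprints per mRNA. ZNF865, ZNF592 and ZNF687 lie above the line, with lower mRNA and footprint changes of 0.57, 0.52 and 0.34, and ZNF593, ZNF609 and ZNF706 lie below it.

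Footprints per mRNA, the ratio of the 2 levels of a gene, had a lower median in the members than over all genes, in both genotypes. The members were chosen by mRNA reads, the denominator of this ratio, and the other genes only by the filter on low counts. The comparison is therefore a description. The median ratio was 0.665 in mutant and 0.650 in wild-type libraries for the 168 members tested, against 1.01 in mutant and 1.03 in wild-type libraries for all 9166 genes tested. Of the 168, 32 in mutant and 33 in wild-type libraries had a ratio above 1. Cluster members had medians of 0.689 in mutant and 0.687 in wild type, and members at other sites 0.658 and 0.627. Summed over all 210 members, with no filter, the ratio was 0.666 and 0.674 in the mutant library pairs and 0.678 and 0.673 in the wild-type pairs. Since the counted feature is not given in the sources used here, a long untranslated region would add to mRNA reads and not to footprints, and its part in these ratios was not tested.

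**Figure D5:**
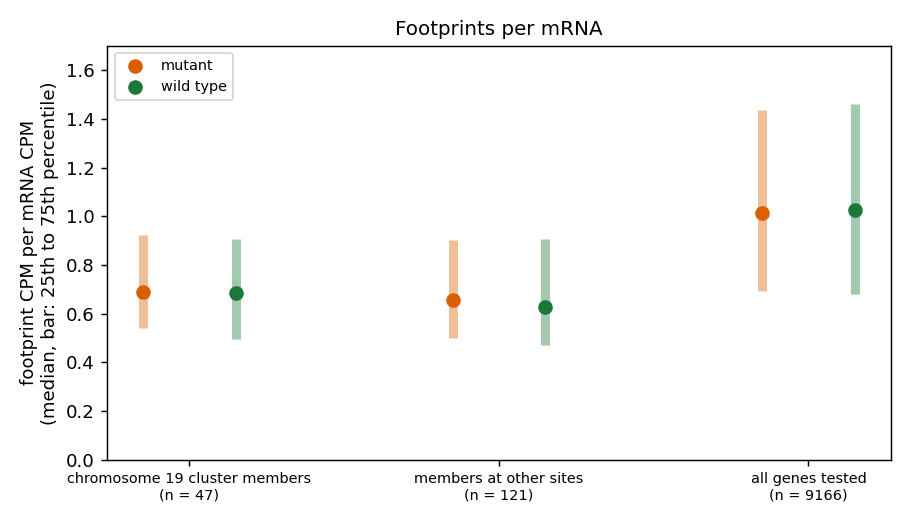
Points give the median ratio of footprint CPM to mRNA CPM and bars the 25th to 75th percentile of genes, mutant left of wild type, for cluster members, members at other sites and all genes tested. Both groups of members have medians between 0.627 and 0.689, against 1.01 in mutant and 1.03 in wild type for all genes. The members were chosen by mRNA reads, the denominator of the ratio.

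Among members with at least 100 footprint reads in all, the wild-type ratio was highest in ZNF480, at 2.21 in mutant and 2.82 in wild-type libraries. ZNF593, a factor of large ribosomal subunit assembly by its yeast counterpart, followed with 1.56 in mutant and 2.33 in wild type, and ZNF670 had 1.63 in mutant and 2.00 in wild type. The lowest were ZNF521, a transcriptional cofactor of early haematopoietic cells, at 0.388 in mutant and 0.286 in wild type, ZNF496 at 0.409 in mutant and 0.292 in wild type, and ZNF592 at 0.527 in mutant and 0.313 in wild type. These ratios span 1 gene each and are descriptions.

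Whether footprints per mRNA differed between genotypes was tested by a genotype by assay term fitted to all 8 libraries. Of 168 members 3 were higher and 3 lower (edgeR quasi-likelihood test, Benjamini-Hochberg adjusted p under 0.05), with a median log2 change of -0.03. Over the 9166 genes tested 1.67% were called higher and 2.49% lower (4.16% in either direction), so the members' shares, 1.79% in each direction, are near the background. Of 47 cluster members 1 was higher and 0 were lower by edgeR, with 6 of the 47 at an unadjusted p under 0.05 in either direction, and DESeq2 likewise called 1 higher and 0 lower. Without mutant footprint replicate 1 edgeR called 0 members in each direction, with 8 higher and 6 lower at an unadjusted p under 0.05. Without mutant footprint replicate 2 the counts were 1 and 1, and without wild-type mRNA replicate 2, or without wild-type footprint replicate 1, 1 member was called higher.

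ZNF865 of cluster 9 had the largest change of the 6. Its mRNA was lower in the mutant, as given above, while its footprints were 76.4 and 64.0 CPM in mutant, against 48.2 and 48.1 CPM in wild-type libraries. Footprints per mRNA stood at 0.877 in mutant and 0.419 in wild-type libraries (edgeR interaction, log2 change 1.10, SE 0.20, adjusted p = 5.93e-05). Its call was the only one of the 6 that DESeq2 also made.

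ZNF592 and ZNF687, which occur together with ZMYND8 in one chromatin complex, both had lower mRNA and higher footprints per mRNA. ZNF592 mRNA was 87.3 and 86.4 CPM in mutant and 103 and 98.9 CPM in wild-type libraries, and its footprints were 44.0 and 47.6 CPM in mutant and 31.7 and 31.5 CPM in wild-type libraries (edgeR interaction, log2 change 0.73, adjusted p = 0.0466). ZNF687 mRNA was 89.7 and 82.6 CPM in mutant and 101 and 105 CPM in wild-type libraries, and its footprints were 86.9 and 100.1 CPM in mutant and 69.2 and 76.0 CPM in wild-type libraries (edgeR interaction, log2 change 0.59, adjusted p = 0.0253). The footprint change alone was not called for either. ZNF687 overlaps PI4KB, and reads of the pair cannot be told apart with certainty.

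ZNF706, ZNF609 and ZNF593 had fewer footprints per mRNA in the mutant. ZNF706, a small zinc finger protein, had 30.4 and 31.2 CPM of footprints in mutant and 50.8 and 47.6 CPM in wild-type libraries, beside mRNA of 133 and 130 CPM in mutant and 118 and 114 CPM in wild-type libraries (edgeR interaction, log2 change -0.86, SE 0.22, adjusted p = 0.0116). ZNF609, whose gene also gives a circular RNA that gene counts do not separate, had 33.5 and 36.1 CPM of footprints in mutant and 56.5 and 51.7 CPM in wild-type libraries, with mRNA of 109 and 106 CPM in mutant and 95.2 and 105 CPM in wild-type libraries (edgeR interaction, log2 change -0.74, adjusted p = 0.0347). ZNF593 had 70.1 and 110.0 CPM of footprints in mutant and 145 and 158 CPM in wild-type libraries, with mRNA of 55.6 and 59.7 CPM in mutant and 61.8 and 67.9 CPM in wild-type libraries (edgeR interaction, log2 change -0.65, adjusted p = 0.0131). In all 3 the footprints of the mutant lie below those of the wild type, which the rule for naming in footprints required. Without mutant footprint replicate 1 the changes of ZNF593 were -0.47 in footprints and -0.29 in footprints per mRNA. ZNF593 overlaps ZNF593OS, a gene on the same stretch, and the strand setting of the counts is not given in the sources used here.

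A list of 33 genes, holding KRAB corepressors and related chromatin and DNA methylation genes, was read, and 32 were tested. The gene not tested was ZFP57. In mRNA 10 rose and 10 fell (median log2 fold change 0.04), in footprints 3 rose and 3 fell, and in footprints per mRNA 1 rose and 1 fell. The shares were 31.2% in each direction in mRNA, against 18.9% over all genes, and 9.38% in each direction in footprints, near the 10.3% higher and 10.9% lower over all genes. TRIM28, the scaffold that binds the KRAB domain, had 590 and 606 CPM of mRNA in mutant and 698 and 708 CPM in wild-type libraries (edgeR log2 fold change -0.24, adjusted p = 2.58e-07), and its footprints fell by 0.23 (edgeR adjusted p = 0.00215). SETDB1 had 67.0 and 63.0 CPM in mutant and 62.7 and 59.2 CPM in wild-type mRNA (log2 fold change 0.10, not called). TASOR, a subunit of the HUSH silencing complex, rose by 0.49 in mRNA, and HDAC2, a deacetylase of NuRD, by 0.42 in mRNA and 0.50 in footprints. CBX3, the HP1 gamma protein, rose by 0.69 in footprints. GATAD2A and MTA1, both of NuRD, fell by 0.37 and 0.34 in mRNA, and DNMT1, the maintenance methyltransferase, by 0.46 in footprints. CHD3 rose by 0.77 and MORC3 fell by 0.60 in footprints per mRNA.

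Other C2H2 families were read by their symbols. Of 34 ZBTB genes tested 5 rose and 3 fell, with ZBTB41 (0.78) and ZBTB33, the Kaiso protein that binds methylated CG (0.38), among the risers and ZBTB17, the MYC partner MIZ1 (-0.62), among the falls. The ZBTB shares, 14.7% higher and 8.82% lower, lie below the 18.9% over all genes in each direction. Of 18 ZSCAN and ZKSCAN genes 1 rose (ZSCAN9, 0.51) and 0 fell by edgeR, with 2 of the 18 at an unadjusted p under 0.05 in either direction. Of 9 genes named ZFP and a number 1 rose (ZFP69, 1.05) and 1 fell (ZFP36, -0.32, an mRNA decay factor whose zinc fingers are of another type). The shares of these 2 families, 5.56% higher for ZSCAN and ZKSCAN and 11.1% in each direction for ZFP, are also below 18.9%. The medians of the 3 families were 0.00, 0.05 and 0.17. Their differences from the numbered ZNF genes were not tested.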

How the data were processed

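RNA was extracted with TRIzol and primed with oligo(dT) for mRNA libraries, and footprints were cut with RNase I and selected by size, per the labels' protocols. The deposited values are raw whole-number counts of reads per gene ID; the authors used cutadapt, Trimmomatic, Bowtie2, STAR and featureCounts with GRCh38, per the submitters' processing notes. The annotation release, strand setting, counted feature and handling of multiply matching reads are not given there. Of 20453 IDs, 20407 matched a symbol. Sites and gene density came from RefSeq (GRCh38.p14) positions.

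Each comparison was fitted over the whole table with edgeR 4.0.16 (quasi-likelihood, glmQLFit with legacy set to FALSE, R 4.3.3), TMM factors within each assay, filterByExpr and Benjamini-Hochberg adjustment over all genes tested, with a threshold of 0.05. Fold changes are mutant over wild type. The change in footprints per mRNA is the genotype by assay term, for genes kept in both assays. CPM values use TMM-scaled totals, and ratios of levels use mean CPM per genotype. Alternatives were RLE size factors, no filter, DESeq2 1.42.0, a replicate block, an assumed biological coefficient of variation of 10%, removal of the density trend, other membership and cluster limits, and each library left out. The procedure was tested on simulated counts.

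Members, lists and tests were chosen with earlier results of these data known. Named genes are the 5 members with the largest mRNA sums; up to 8 called rises and 8 called falls per comparison with a mean count of at least 30 per assay and groups that do not overlap; the 3 highest and 3 lowest wild-type ratios among members with 100 or more footprint reads; and up to 4 genes of each other list by p. Other members of clusters 4, 8 and 9, the members of chromosome 16 and the opposite calls were named after their values were seen. Protein sequences were not used here. Depth limits the footprint values: the median member had 14.5 and 9 reads in the mutant footprint libraries and 24 and 31.5 in the wild-type ones.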

Additional observations from a re-analysis of the deposited data

Results flagged for a closer look

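The interaction of genotype and assay, which tests whether the change in footprints differs from the change in mRNA, was called for 6 members (edgeR, Benjamini-Hochberg adjustment). The log2 change in footprints per mRNA was 1.10 for ZNF865, 0.73 for ZNF592 and 0.59 for ZNF687. It was -0.86 for ZNF706, -0.74 for ZNF609 and -0.65 for ZNF593. Each of the 6 calls was lost without mutant footprint replicate 1 and with an assumed coefficient of variation of 10%.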

How the results depend on the processing

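No member named for a rise or a fall changed sign in that comparison, in the settings that gave an adjusted p. The other named members were not checked in this way. Of 128 recomputed main values 90 stayed within their limits and 38 moved. The limit was a fixed ratio for counts of calls, and for medians the standard deviation over pairings of single libraries. With DESeq2, members called were 12 higher and 10 lower in mRNA (67 and 35 by edgeR), 0 and 1 in footprints (14 and 10) and 1 and 0 in footprints per mRNA (3 and 3), where 4 and 4 had an unadjusted p under 0.05. With an assumed coefficient of variation of 10% they were 13 and 4, 3 and 2, and 0 and 0, the last with 7 and 6 at an unadjusted p under 0.05 by edgeR. Common estimated values were 2.25% in mRNA, 1.92% in footprints and 2.17% over both. With the density trend removed, 19 members were lower in mRNA and the difference between cluster and other medians was 0.38. With no filter, 9 were higher in footprints. With members of 300 or more mRNA reads, 41 were higher in mRNA and the median difference in footprints per mRNA was 0.24, against -0.04.

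With 1 library left out, mRNA calls ranged over 37 to 59 higher and 17 to 29 lower, footprint calls over 0 to 11 and 0 to 9, and calls in footprints per mRNA over 0 to 3 each. The cluster difference ranged over 0.28 to 0.34 in mRNA, 0.038 to 0.28 in footprints (0.13 with all) and -0.059 to 0.14 in footprints per mRNA, above 0 in 6 of the 8 and so without a stable sign. Of the 16 members named in mRNA 9 kept their call in every setting that gave one; of the 15 in footprints and the 6 in footprints per mRNA, 0 did by edgeR and its alternatives. A left-out library did not change which genes were members, so the ranges above do not show the effect of the rule. Equal replicate numbers did not pair the libraries (correlations of deviations 0.02 to 0.06). The replicate block left 66 higher and 34 lower in mRNA, and with it the footprint difference was 0.038.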
